A study of Mus musculus with 7 samples.

Results

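A set of transcription factor genes that steer the fate of CD8 T cells was followed across 7 expression arrays: Tbx21, Eomes, Id2, Id3, Prdm1, Zeb2, Bcl6 and Runx3. These 8 genes, of 34797 gene names on the array, were picked by name, and every probe that carries one of the names was taken, 12 probes of 55681. Of these 12 probes, 9 were well above background on at least 3 arrays, and 7 of the 8 genes could be tested, among 18231 genes tested in all. The Lck-off group held 4 arrays of naive CD8 T cells from Lck-/- mice that depended on a doxycycline-driven Lck copy, with doxycycline withheld for 7 days before the cells were taken. The WT group held 3 arrays of naive CD8 T cells with their own Lck. Mice of both groups were OT-1het and Rag-/-, so that the T cells carried 1 transgenic receptor, for an ovalbumin peptide, and no other rearranged receptor. The cells came fresh from lymph nodes, without stimulation, and were sorted as CD8b+ and CD44low. Lck-/- mice still fed doxycycline were not analysed here, so Lck loss, the Lck-/- genotype with its inducible copy, and the diet cannot be told apart. The age and sex of the mice, the promoter and cell types that drive the inducible copy, and whether an array stands for 1 animal are not stated in these sources. The samples are called biological replicates by their submitters, and the p-values below measure the spread between these samples.

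Lck is the kinase that starts signalling from the T cell receptor, and receptor signals, together with cytokines, set the levels of these 8 factors when a CD8 T cell is activated. T-bet (the product of Tbx21) and Eomes are related T-box factors that switch on effector and memory genes. Id2 and Id3 bind E proteins and keep them off DNA, and in mouse CD8 T cells Id2 is linked to effector and Id3 to memory precursor cells. Blimp-1 (Prdm1) and Bcl6 repress each other in lymphocytes, Zeb2 works with T-bet in terminal effector cells, and Runx3 upholds the CD8 lineage against the CD4 lineage.

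Of the 7 factors that could be tested, Tbx21, Eomes and Id3 were lower in Lck-off cells, each at about 51.0% to 55.0% of the WT level. Prdm1, a dim gene, was 2.53-fold higher, a size that moved with the handling of background. Id2, Bcl6 and Runx3 did not pass the test, and Zeb2 was not well above background on any array. All values are log2 intensities relative to the 75th percentile of the same array, differences are Lck-off minus WT, and a gene passed with an adjusted p under 0.05 in limma over all 18231 genes. Passing genes made up 8.38% of all genes tested, 3.8% on the higher side and 4.57% on the lower side, and 4 of the 7 factors passed, 1 higher and 3 lower. The levels of these 4 did not overlap between the groups, which was so for 21.8% of all genes. Before adjustment, 3918 of the 18231 genes had a p under 0.05 in limma. The median difference of the 7 factors was -0.33, against -0.01 for all genes. The 8 genes were chosen with results of these arrays already known, so these counts describe the set and carry no test of it. In total RNA of a sorted population, fewer cells that express a gene and less RNA per cell cannot be told apart.

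The probe sequences show which stretch of each transcript was measured. The first 30 bases of the probes for the 4 factors that passed are given here, because the results on these genes rest on these single probes, or for Eomes on a pair of probes.
Tbx21 probe: gaggggggaggctatttattgtagagagtg
Eomes brighter probe: gctatgaagaacgagtgcccggtgctatta
Eomes dimmer probe: tcataagtcatttttaataaatgtggttca
Id3 probe: tccgcatctcccgatccagacagctgagct
Prdm1 probe: gttggttggtttgtttgtttgttttttcct
On mm9, the Tbx21 probe lay at chr11:96959417-96959476 (minus strand), the Eomes probes at chr9:118394425-118394484 and chr9:118395189-118395248 (plus strand) and the Prdm1 probe at chr10:44157089-44157148 (minus strand). The Id3 probe covered chr4:135700075-135700249 (plus strand), a span longer than the probe itself, so it crosses an intron. Each probe reports on its own stretch of the transcript, and the levels of different genes are therefore not ranked against each other here.

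The stretches just upstream of the start sites of the same 4 genes are shown because these genes differed between the groups. They are the 250 bases before the start of each gene from RefSeq (GRCm38.p6), with capitals marking matches to 5 motifs searched on both strands: the ISRE core (GAAA, any 2 bases, GAAA), the STAT site TTCNNNGAA, the T-box motif GGTGTGA, the AP-1 site TGANTCA and the E-box CANNTG.
Tbx21, chr11:97115332-97115581 (minus strand): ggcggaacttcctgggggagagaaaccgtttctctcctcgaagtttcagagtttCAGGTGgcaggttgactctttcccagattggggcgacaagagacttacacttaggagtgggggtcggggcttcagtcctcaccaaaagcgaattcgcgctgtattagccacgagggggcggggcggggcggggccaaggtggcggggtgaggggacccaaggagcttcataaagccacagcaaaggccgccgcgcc
Eomes, chr9:118477939-118478188 (plus strand): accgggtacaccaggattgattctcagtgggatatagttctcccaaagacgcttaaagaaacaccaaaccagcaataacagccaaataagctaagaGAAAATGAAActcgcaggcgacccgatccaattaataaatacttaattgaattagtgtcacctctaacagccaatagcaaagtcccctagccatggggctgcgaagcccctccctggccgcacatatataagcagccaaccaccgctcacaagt
Id3, chr4:136143572-136143821 (plus strand): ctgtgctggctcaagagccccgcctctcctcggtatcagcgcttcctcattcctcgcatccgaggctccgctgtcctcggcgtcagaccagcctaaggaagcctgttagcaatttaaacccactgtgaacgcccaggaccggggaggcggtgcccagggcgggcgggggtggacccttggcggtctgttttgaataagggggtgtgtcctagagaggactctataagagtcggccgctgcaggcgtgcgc
Prdm1, chr10:44458749-44458998 (minus strand): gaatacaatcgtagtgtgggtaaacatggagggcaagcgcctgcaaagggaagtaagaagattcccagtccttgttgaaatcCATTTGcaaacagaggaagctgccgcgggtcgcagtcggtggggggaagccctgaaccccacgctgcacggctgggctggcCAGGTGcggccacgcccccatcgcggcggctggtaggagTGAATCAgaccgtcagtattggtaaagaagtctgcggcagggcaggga
The Prdm1 window held an AP-1 match whose first base lay at -48 from the start and E-boxes at -168 and -87. The Eomes window held an ISRE core at -154, the Tbx21 window an E-box at -196, and the Id3 window no match. Of all 32851 windows of this length, 6.75% held an AP-1 match, 2.98% an ISRE core, 7.02% a STAT site, 3.33% the T-box motif and 66.2% an E-box. Among the 3 factors that did not pass, both Bcl6 windows held STAT site matches, 3 in 1 window and 1 in the other. E-boxes were found for these factors too, at -196 in Id2, -233 in 1 Runx3 window and -60 in 1 Bcl6 window. These matches are letters in a window and were not tied to the measured differences.

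Tbx21, the gene of the T-box factor T-bet, was lower in every Lck-off sample. Its levels were 0.51, 0.67, 0.68 and 0.36 on the Lck-off arrays, against 1.60, 1.36 and 1.57 on the WT arrays. The groups were separated by a gap of 0.68, and samples within a group lay close together. The means were 0.56 ± 0.15 in Lck-off cells (SD, n = 4) and 1.51 ± 0.13 in WT cells (SD, n = 3), a difference of -0.95 (SE 0.11), with a 95% confidence interval of -1.21 to -0.70. The Lck-off level was 51.6% of WT (95% confidence interval 43.2% to 61.6%), and limma gave an adjusted p of 0.0025. In the exact permutation test over the 35 possible splits of the 7 arrays, only the labelled split gave a difference this large, a two-sided p of 0.0286, the smallest this design allows.

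Eomes, the other T-box factor, was lower by a similar amount. Its levels were 0.59, 0.70, 0.78 and 1.01 on the Lck-off arrays, against 1.63, 1.72 and 1.54 on the WT arrays, again with no overlap and a gap of 0.53. The difference was -0.86 (SE 0.11, 95% confidence interval -1.12 to -0.60), or 55.0% of the WT level, with an adjusted p of 0.00407 in limma. The exact permutation p was 0.0286. The dimmer Eomes probe, further along the transcript, read -3.04, -2.76, -2.50 and -2.30 in Lck-off cells, against -1.60, -1.38 and -1.54 in WT cells. Both Eomes probes were thus lower in every Lck-off sample, the dimmer one by -1.14 (SE 0.17, adjusted p 0.00904 in limma over 25578 probes).

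The balance of the 2 T-box factors within an array was not detectably different between the groups. The log2 ratio of Eomes to Tbx21 was 0.07, 0.03, 0.10 and 0.65 in Lck-off samples, against 0.03, 0.36 and -0.03 in WT samples. The groups overlapped, and the ratio was highest in Lck-off replicate 4, where Tbx21 was at its lowest and Eomes at its highest within that group. The means differed by 0.09, and 25 of the 35 splits gave a difference at least as large (exact permutation p = 0.714, also after adjustment over the 3 pairs of factors compared). This does not show that the 2 genes fell equally, since the sign of the difference turned without Lck-off replicate 4 (-0.05) and with the probes of a gene averaged (-0.05).

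**Figure D1:**
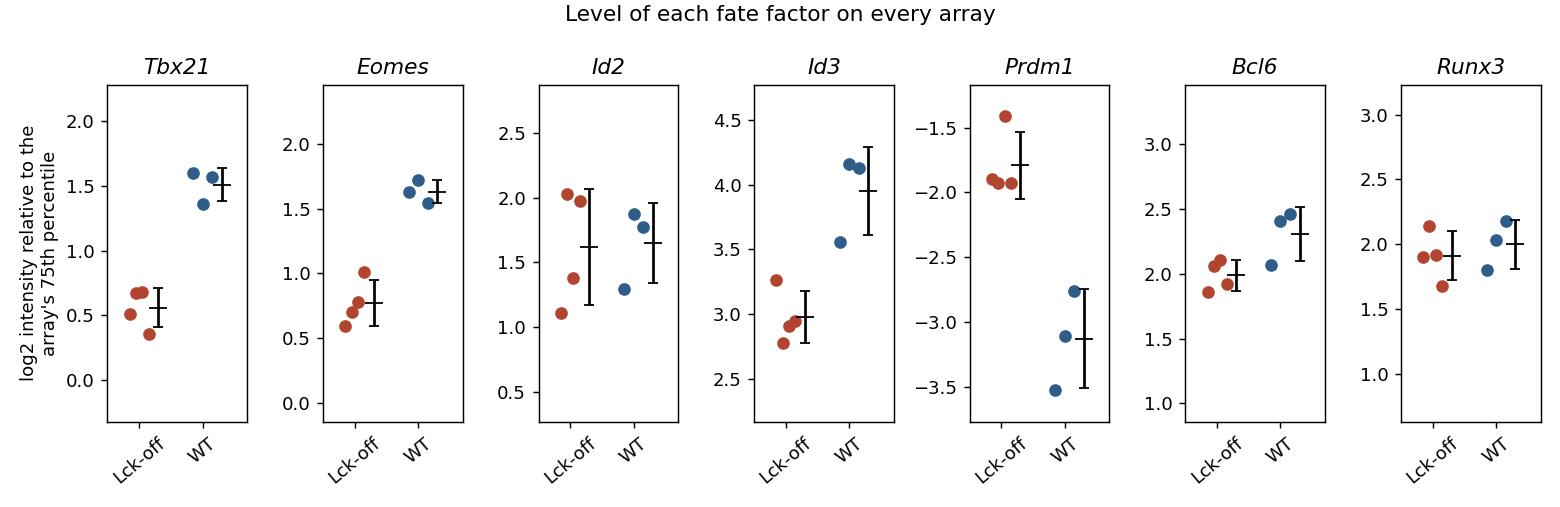
Level of each of the 7 measured fate factors, as log2 intensity relative to the 75th percentile of the array, on the 4 Lck-off arrays (red, left) and the 3 WT arrays (blue, right); bars give the mean and SD, and every panel spans the same range of log2 units. Tbx21, Eomes and Id3 lie lower and Prdm1 higher on every Lck-off array, with gaps between the groups of 0.68, 0.53, 0.30 and 0.83, while Id2, Bcl6 and Runx3 overlap.

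Of the Id genes, Id3 was lower in Lck-off cells and Id2 did not pass the test. Id3 levels were 3.26, 2.78, 2.91 and 2.95 on the Lck-off arrays, against 3.56, 4.16 and 4.13 on the WT arrays. Every Lck-off sample was below every WT sample, with the gap of 0.30 set by Lck-off replicate 1 and WT replicate 1. The difference was -0.97 (SE 0.18, 95% confidence interval -1.39 to -0.55), which put Lck-off cells at 51.0% of WT (95% confidence interval 38.1% to 68.2%). The adjusted p in limma was 0.0174, and the exact permutation p was 0.0286. This call was the least firm of the 4. It was lost when WT replicate 2 (-0.87, adjusted p 0.0671) or WT replicate 3 (-0.88, adjusted p 0.0697) was left out, and likewise for Lck-off replicates 3 (-0.95, adjusted p 0.0555) and 4 (-0.96, adjusted p 0.0542), all in limma. Id3 also lies 6.47 Mb from the Lck probe on chromosome 4, and of the 317 genes tested within 10 Mb of Lck, 65 passed (20.5%), against 8.38% of all genes. The part of this in the Id3 difference was not tested.

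Id2 varied more within the groups than between them. Its levels were 1.11, 2.03, 1.38 and 1.97 in Lck-off samples, against 1.29, 1.87 and 1.77 in WT samples. High and low samples occurred in both groups, with means of 1.62 ± 0.45 in Lck-off cells (SD, n = 4) and 1.65 ± 0.31 in WT cells (SD, n = 3). The difference was -0.02 (SE 0.26, adjusted p 0.974 in limma), and its 95% confidence interval, -0.64 to 0.59, leaves room for an Lck-off level of 64.1% to 151% of WT. The spread between arrays was too wide to detect a difference smaller than this.

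The balance of Id2 to Id3 within an array stood higher in all Lck-off samples, by an uneven amount. The log2 ratio was -2.16, -0.75, -1.54 and -0.98 in Lck-off samples, against -2.27, -2.28 and -2.35 in WT samples. The WT samples lay close together around -2.30 (SD 0.05), and Lck-off replicate 1 lay close to them. The means differed by 0.95, and 2 of the 35 splits gave a difference at least this large (exact permutation p = 0.0571, or 0.0857 adjusted over the 3 pairs), so this contrast did not pass.

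The E proteins are the partners that Id2 and Id3 hold back. Of 5 genes of E proteins and other Id proteins, 4 were tested, 1 was higher, 0 were lower and 3 did not pass. The median difference, taken over the E protein genes and Id1 together, was 0.41. Over all genes tested, 3.8% passed on the higher side and 4.57% on the lower side. The gene that passed was Tcf4, an E protein gene, which read -0.10, -0.16, -0.49 and -0.32 in Lck-off samples, against -1.28, -0.87 and -0.69 in WT samples. Every Lck-off sample was higher, by a mean of 0.68 (SE 0.16, adjusted p 0.044 in limma). This call held only without WT replicate 3 among the repeats that leave out an array (0.81), and was lost in the other 6 (0.51 to 0.75, adjusted p 0.0583 to 0.106). It was also lost with median scaling (adjusted p 0.171), quantile normalization (0.0577), no filter on dim probes (0.156), the replicate block (0.228) and the slide row as a block (0.0806). The E protein gene Tcf3 differed by -0.01 (adjusted p 0.98) and Tcf12 by 0.18 (adjusted p 0.463), both in limma. Id1 differed by 0.65 (adjusted p 0.151 in limma), and no probe of Id4 was well above background.

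Prdm1, the gene of the repressor Blimp-1, was the 1 factor higher in Lck-off cells. Its levels were -1.90, -1.93, -1.41 and -1.93 on the Lck-off arrays, against -3.53, -3.11 and -2.76 on the WT arrays. All Lck-off samples lay above all WT samples, by a gap of 0.83. The means were -1.79 ± 0.26 in Lck-off cells (SD, n = 4) and -3.13 ± 0.38 in WT cells (SD, n = 3), a difference of 1.34 (SE 0.21, 95% confidence interval 0.85 to 1.83). That is 253% of the WT level (95% confidence interval 181% to 355%), with an adjusted p of 0.00854 in limma and an exact permutation p of 0.0286. The gene was dim in both groups. It was well above background on 4 of 4 Lck-off arrays and on 2 of 3 WT arrays. The faintest probes that cleared background lay between -4.40 and -3.37 on Lck-off arrays and between -4.11 and -3.50 on WT arrays. The size of the difference moved with the handling of background. It was 0.45 after normexp background correction and 0.51 in the authors' deposited value table, both still past the threshold. Among macrophage genes, C1qb was higher in Lck-off cells (0.59, adjusted p 0.0469 in limma). C1qa (1.38, adjusted p 0.0734) and C1qc (1.75, adjusted p 0.0932) did not pass in limma, with point estimates as large as that of Prdm1, and both were well above background on 4 of 4 Lck-off arrays and 1 of 3 WT arrays. The part of other cell types in the Prdm1 difference was not tested.

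Bcl6, which Blimp-1 opposes, did not pass the test. Its levels were 1.86, 2.06, 2.11 and 1.92 in Lck-off samples, against 2.07, 2.41 and 2.46 in WT samples. The groups touched, since WT replicate 1 lay just below Lck-off replicate 3. The difference was -0.33 (SE 0.12, 95% confidence interval -0.60 to -0.05), with an adjusted p of 0.167 in limma over all genes and an exact permutation p of 0.0571. The log2 ratio of Prdm1 to Bcl6 was -3.76, -4.00, -3.52 and -3.85 in Lck-off samples, against -5.60, -5.52 and -5.23 in WT samples. The ratios of the groups lay far apart relative to their spread (SD 0.20 in Lck-off and 0.19 in WT), with means 1.67 apart. The exact permutation p was 0.0286, the smallest possible, and 0.0857 after adjustment over the 3 pairs, so this contrast did not pass. Even at that smallest p, a lone contrast cannot pass after this adjustment. The lowest value of this contrast over the alternatives was 0.74, after normexp background correction, and the authors' deposited table gave 0.78.

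**Figure D2:**
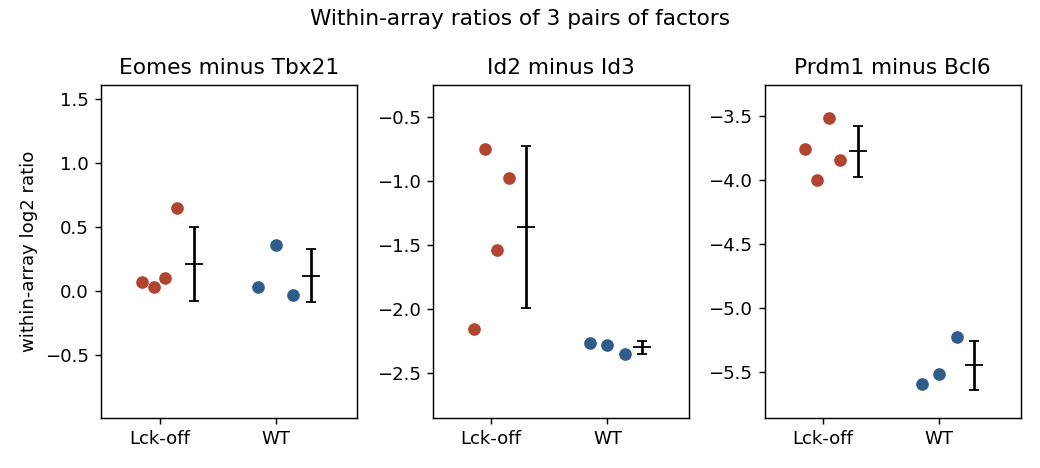
Within-array log2 ratio of 3 pairs of factors on the 4 Lck-off arrays (red, left) and the 3 WT arrays (blue, right), with mean and SD; every panel spans the same range. The Eomes to Tbx21 ratio overlaps between the groups, the Id2 to Id3 ratio is spread from -2.16 to -0.75 in Lck-off, and the Prdm1 to Bcl6 ratio lies at -4.00 or above in Lck-off, against -5.23 or below in WT.

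Runx3, which maintains the CD8 programme, did not pass. Its brighter probe, at chr4:134733846-134733905 on mm9, read 1.90, 2.14, 1.92 and 1.68 in Lck-off samples, against 1.80, 2.03 and 2.18 in WT samples. These ranges overlapped widely, and the difference was -0.09 (SE 0.13, adjusted p 0.771 in limma), with a 95% confidence interval of -0.41 to 0.22, or 75.5% to 116% of WT. The second probe, at chr4:134731959-134732018, read 0.84, 0.74, 0.61 and 0.55 in Lck-off samples, against 0.48, 0.48 and 0.75 in WT samples. Its difference had the other sign, 0.11 (SE 0.11, adjusted p 0.645 in limma over all probes). The intervals bound any change in Runx3 but do not show that it was the same in both groups. Runx3 too lies near Lck, 5.51 Mb from its probe.

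Among genes that share work with Runx3, Runx1 and Cd8b1 lay nearest the threshold. Of 7 partners and lineage genes, 6 were tested and 0 passed in either direction by limma, against 8.38% of all genes tested. Of these 6, 4 had an unadjusted p under 0.05 in limma, and the median difference was 0.21. Some passed under other settings: 2 were higher with normexp or with averaged probes, 2 were higher and 1 lower in the authors' deposited table, and 3 were higher and 1 lower with trended and robust moderation. Quantile normalization gave 1 lower, and 1 was higher with probes required on all 7 arrays or without Lck-off replicate 1. Runx1, another Runx factor, differed by 0.60 (adjusted p 0.0639), and Cbfb, the shared partner subunit, by -0.28 (adjusted p 0.102). Cd8b1 differed by 0.25 (adjusted p 0.065) and Cd8a by 0.28 (adjusted p 0.146). Zbtb7b, the factor of the CD4 lineage that Runx3 opposes, differed by 0.18 (adjusted p 0.269), and Cd4 by 0.04 (adjusted p 0.892). All of these p-values are from limma.

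Zeb2 was not measurable here. It had 3 probes on chromosome 2, and none was well above background on any of the 7 arrays, with levels of -6.39 to -5.57 on Lck-off arrays and -6.29 to -5.64 on WT arrays. No fold is given, and a Zeb2 level below the reach of these probes could still differ between the groups.

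**Figure D3:**
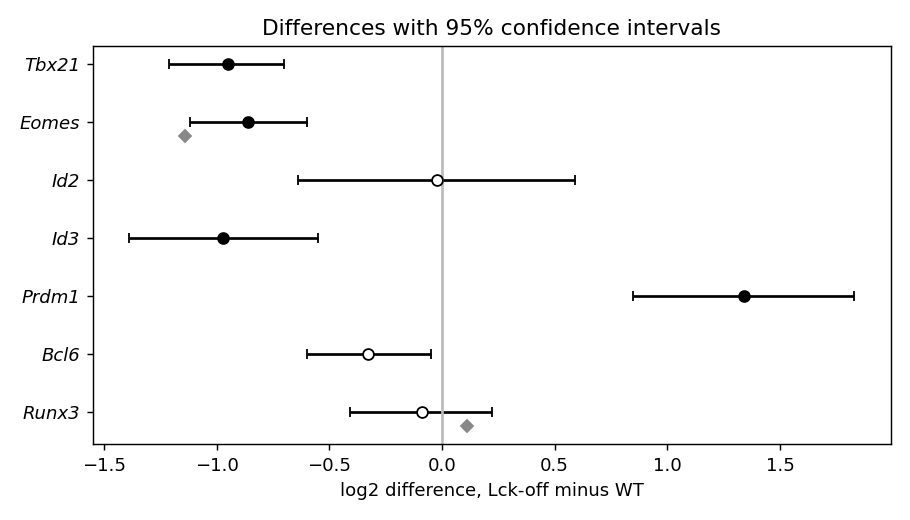
Log2 difference, Lck-off minus WT, of each measured factor with its 95% confidence interval from limma (4 Lck-off and 3 WT arrays); filled circles passed at an adjusted p under 0.05, open circles did not, and grey diamonds give the second probe of Eomes and Runx3. Tbx21, Eomes and Id3 lie between -0.97 and -0.86, Prdm1 at 1.34, and the interval of Id2 is the widest among those that did not pass.

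Among genes on which T-bet, Eomes or Runx3 act, those that passed differed in both directions. Of 15 such genes, 12 were tested, 1 was higher, 2 were lower and 9 did not pass, with a median difference of 0.37. Over all genes tested, 3.8% passed on the higher side and 4.57% on the lower side. Gzma, a granzyme of killer cells, read 3.67, 4.11, 4.05 and 4.27 in Lck-off samples, against 0.87, 1.82 and 1.07 in WT samples. It was higher in every Lck-off sample, by 2.77 (SE 0.25, adjusted p 0.00106 in limma). Nkg7, a protein of cytotoxic granules, read 7.46, 7.37, 7.29 and 7.23 in Lck-off samples, against 8.09, 8.09 and 8.18 in WT samples. It was lower in every Lck-off sample, with a difference of -0.78 (SE 0.08, adjusted p 0.00158 in limma). The Nkg7 call was lost with the replicate block (-0.75, adjusted p 0.0561 in limma). Il2rb, the receptor chain through which IL-15 maintains memory cells and a target of both T-box factors, was lower by -0.60 (SE 0.11, adjusted p 0.0191 in limma). The Il2rb call was lost without WT replicate 1 (-0.63), WT replicate 3 (-0.50), Lck-off replicate 3 (-0.59) or Lck-off replicate 4 (-0.57), at an adjusted p of up to 0.0608. Median scaling (adjusted p 0.0884), no filter on dim probes (0.0899) and the replicate block (0.17) lost it too, all in limma.

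Among the targets that did not pass were Cxcr3, a chemokine receptor (0.70, adjusted p 0.0659), Hopx (-0.60, adjusted p 0.0671), the integrin gene Itgae (-0.55, adjusted p 0.0925) and the perforin gene Prf1 (0.20, adjusted p 0.201), all in limma. Ifng, the cytokine gene most closely tied to T-bet, read -5.11, -0.56, -2.12 and 0.03 in Lck-off samples, against -3.89, -2.25 and -2.16 in WT samples. The spread within the Lck-off group exceeded the difference of 0.83 (adjusted p 0.775 in limma). The Ifng probe was well above background on 3 of 4 Lck-off and 2 of 3 WT arrays. No probe of Fasl or S1pr5 was well above background.

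Cytokine receptors feed signals to these factors. Of 14 such genes, all measured, 2 were higher, 2 were lower and 10 did not pass, with a median difference of 0.09. The shares over all genes tested were 3.8% higher and 4.57% lower. Il2ra, the high-affinity IL-2 receptor chain, read -1.41, -0.85, -0.75 and -1.02 in Lck-off samples, against -3.92, -3.52 and -5.11 in WT samples, where no array was well above background. Lck-off cells had at least 7.14-fold more signal (adjusted p 0.00263 in limma), where the WT arrays enter at their faintest probe that cleared background. That bound holds for the processed intensity alone, since the log2 difference was 1.00 after normexp background correction and 1.03 in the authors' deposited table, both past the threshold, against a fitted 3.17 here. Il6st, the shared chain of the IL-6 and IL-27 receptors, was lower by -0.67 (SE 0.12, adjusted p 0.0156 in limma). Its call was lost in 5 of the 7 repeats that leave out an array, without any 1 WT array or Lck-off replicates 3 or 4 (-0.69 to -0.64, adjusted p up to 0.0601). Median scaling (adjusted p 0.066), no filter on dim probes (0.0741) and the replicate block (0.0948) also lost the Il6st call, all in limma. Ifngr1, a chain of the interferon gamma receptor, was higher by 0.35 (SE 0.08, adjusted p 0.0312 in limma). Its call was lost without any single array (0.31 to 0.39, adjusted p up to 0.101). Median scaling (adjusted p 0.261), no filter on dim probes (0.174), the replicate block (0.168) and the slide row as a block (0.0593) likewise lost it, all in limma.

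None of the other factors of naive and memory cells passed. Of 12 such genes, all measured, 0 were higher and 0 lower by limma, with 1 at an unadjusted p under 0.05 and a median difference of -0.04. Over all genes tested, 8.38% passed, and at that share a list this short could hold few or no passing genes. Tcf7, the gene of TCF-1, differed by 0.08, Lef1 by -0.13, Foxo1 by 0.12, Bach2 by -0.18 and Klf2 by -0.02, each with an SE of 0.06 to 0.20. Ets1 differed by -0.24 (SE 0.07, adjusted p 0.0942 in limma), the smallest p of the list. With trended and robust moderation 1 gene of this list was lower.

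Of 14 factors of activated and effector cells, 9 were tested, 0 were higher, 2 were lower and 7 did not pass, with a median difference of -0.12. Over all genes tested, 3.8% were higher and 4.57% lower. Ikzf2, the gene of Helios, read -4.00, -2.41, -3.43 and -3.73 in Lck-off samples, against -1.96, -1.41 and -1.72 in WT samples. Every Lck-off sample was lower, by a mean of -1.70 (SE 0.36, adjusted p 0.0318 in limma), with the probe well above background on 2 of 4 Lck-off arrays and 3 of 3 WT arrays. The difference was smaller after normexp background correction (-0.65) and in the authors' deposited table (-0.63), where it passed. The Ikzf2 call held only without Lck-off replicate 2 among the repeats that leave out an array, and was otherwise lost (-1.83 to -1.50, adjusted p 0.0577 to 0.112). No filter on dim probes (adjusted p 0.107) and the replicate block (0.0561) lost it too, both in limma. Tox, a factor of persistently stimulated cells, was lower by -0.43 (SE 0.10, adjusted p 0.0386 in limma). Its call was lost without any 1 WT array or Lck-off replicates 3 or 4 (-0.45 to -0.42, adjusted p 0.085 to 0.118). Median scaling (adjusted p 0.216), no filter on dim probes (0.17), averaged probes (0.0814) and the replicate block (0.169) also lost it, all in limma. Batf differed by -0.16, Gata3 by 0.33 and Nfil3 by 0.43, with adjusted p of 0.493, 0.0678 and 0.11 in limma.

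Surface genes that mark differentiation of CD8 T cells were mixed as well. Of 12 such genes, 9 were tested, 1 was higher, 1 was lower and 7 did not pass, with a median difference of 0.07. The shares over all genes tested were 3.8% higher and 4.57% lower. The Ly6c1 probe, which may also detect near-identical Ly6c genes, read 8.21, 8.67, 8.36 and 8.34 in Lck-off samples, against 5.48, 5.63 and 4.90 in WT samples. It stood 3.06 higher (SE 0.19, adjusted p 0.00035 in limma). Cd44 read -2.02, -1.36, -2.17 and -1.96 in Lck-off samples, against -0.78, -0.54 and -0.75 in WT samples. It was lower by -1.18 (SE 0.19, adjusted p 0.0105 in limma) in cells of both groups that had been sorted for low CD44 protein. The Cd44 difference was smaller after normexp background correction (-0.71) and in the authors' deposited table (-0.69), where it also passed. Cd27, a costimulatory receptor gene, did not pass (0.38, adjusted p 0.0563 in limma).

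**Figure D4:**
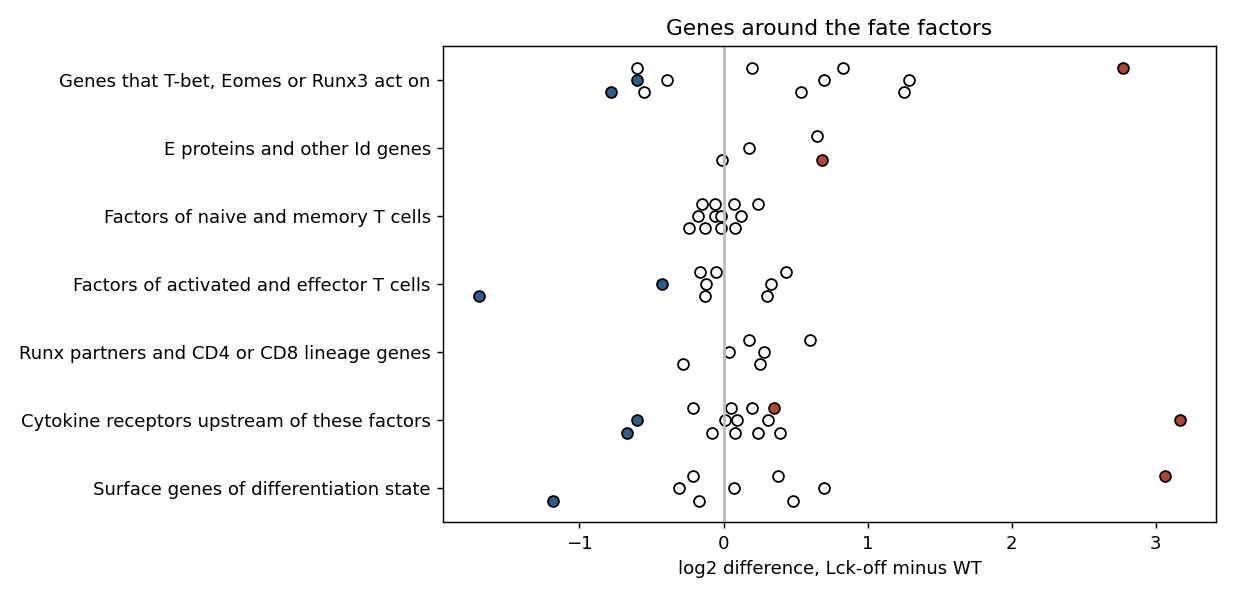
Log2 difference, Lck-off minus WT (4 and 3 arrays), of each measured gene in 7 groups of genes around the fate factors; red points were higher and blue points lower at an adjusted p under 0.05 in limma, open points did not pass. The points furthest right are Il2ra, Ly6c1 and Gzma, and the point furthest left is Ikzf2. All 12 factors of naive and memory cells are open, while 8.38% of all genes tested passed. Il2ra was not well above background in WT, so its fitted point is not a bound.

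For each factor that passed, the genes whose levels followed it most closely over the 7 arrays were found among 11250 genes with a current symbol, as a description with no test. Each such r includes the difference between the groups. Tbx21 was followed by Gm15421 (Pearson r 0.998), Cd52 (0.992), a small surface glycoprotein of lymphocytes, and Bri3bp (0.991). Eomes was followed by As3mt (0.994), Cryz (0.991) and Zfp446 (0.990). Id3 was followed by Sox4 (0.990), a transcription factor that was itself lower in Lck-off cells (a difference of -1.22, adjusted p 0.0059 in limma), then by Fanca and Adcy6 (both 0.988). Prdm1 was followed by Ascc3 (0.995), Pmepa1 (0.992) and Ccr9 (0.989), a gut-homing chemokine receptor that was 0.69 higher (adjusted p 0.00529 in limma).

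The arrays were broadly alike in quality, with a higher share of probes above background on row 1 of the slide. Their 75th percentiles ranged from 212 to 243 intensity units in Lck-off and from 208 to 235 in WT, and 0 spots were saturated. Probes well above background made up 46% to 48.6% on row 1 and 42.5% to 45.1% on row 2. Arrays of the same group correlated at 0.990 to 0.995, and arrays of different groups at 0.983 to 0.987. The Lck probe read 8.52, 8.83, 8.60 and 8.55 in Lck-off samples, against 8.99, 9.02 and 8.98 in WT samples, a difference of -0.37 (adjusted p 0.0493 in limma) that was lost without any array other than Lck-off replicate 2. That probe starts at base 2085 of the transcript and may lie outside the altered part of the gene, so it does not check the labels.

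Markers of CD8 T cells were abundant in both groups. Their 10 genes summed to a linear level of 2140 to 2290 times the 75th percentile in Lck-off samples and 2090 to 2220 in WT samples. Markers of NK cells, which share Tbx21, Eomes and Gzma, summed to 0.556 to 2.41 in Lck-off samples and 0.432 to 0.723 in WT samples, with the highest value in Lck-off replicate 2. Of the NK genes, 1 of the 7 on the array could be tested and 0 passed by limma (0 at an unadjusted p under 0.05), and Klri2 and Klrb1b were not well above background. Markers of B cells summed to 12.4 to 15.3 in Lck-off and 12.7 to 14.7 in WT samples, or 0.903 to 1.15 and 0.822 to 0.955 without Cd79b, with Ms4a1 and Pax5 among those not above background. Macrophage, monocyte and neutrophil markers, among which Prdm1 is also expressed, summed to 51.2 to 62.0 in Lck-off samples and 41.6 to 58.7 in WT samples, or 6.31 to 9.17 and 4.43 to 7.20 without Itgam. Of these, 1 of 7 tested was higher, C1qb as given above, 4 had an unadjusted p under 0.05, the median difference was 0.59, and Fcgr3 and Ccr2 were not above background. Dendritic cell markers summed to 273 to 336 in Lck-off samples and 265 to 284 in WT samples. Without Siglech, these sums were 21.7 to 33.7 and 21.4 to 22.3. Of the dendritic cell genes, 0 of 9 passed by limma, 2 had an unadjusted p under 0.05, and the median difference was 0.86. For comparison, 3918 of all 18231 genes had an unadjusted p under 0.05 in limma. CD4 and regulatory T cell markers summed to 18.2 to 21.5 in Lck-off samples and 17.2 to 18.2 in WT samples, and innate lymphoid markers to 0.311 to 0.443 in Lck-off samples and 0.330 to 0.990 in WT samples. The part of these cells in the Tbx21 and Eomes differences was not tested.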

How the data were processed

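Total RNA (50 ng per sample) from 4 Lck-off and 3 WT samples was measured on single-colour Agilent arrays. The authors' processed intensity, per the file headers, is from Feature Extraction 10.7.3.1 on design 028005 (mm9) and is corrected for background within each array and not between arrays. That software also made the mean and background intensity columns and the other columns (spot flags), per the file headers. A deposited table of values is on a log2 scale by its range; limma is named in the submitters' processing notes, without a version or steps.

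Values were log2 processed intensity minus each array's 75th percentile over non-control spots. Non-uniform spots were left out, spots of a probe averaged, probes well above background on at least 3 arrays kept, and each gene read from its brightest kept probe. Differences between Lck-off and WT were fitted in limma 3.58.1 (R 4.3.3, with version 1.17.8 of the data.table package), two-sided, with Benjamini-Hochberg adjustment over 18231 genes; the median SE was 0.111. Single values were tested by exact permutation. A summed marker level adds the linear levels of the brightest probe of each gene.

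The 8 genes and all gene lists were chosen with earlier results of these data known. Named genes were the 8 factors, Lck, up to 4 passing genes of smallest p per list and the 3 most correlated genes per passing factor; other list members are given as examples of genes that did not pass. Some list members are not reported here. Alternatives changed the background correction, scaling, filter, probe summary, flags, moderation, source of values, blocks and arrays. Deviations of arrays sharing a replicate number correlated at 0.11, 0.05 and -0.01, so the numbers were not taken as pairs.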

Additional observations from a re-analysis of the deposited data

Results flagged for a closer look

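Prdm1 had 1 sample apart from the others of its group. On the Lck-off arrays, replicate 3 read -1.41 and the other replicates -1.90, -1.93 and -1.93, so the gap below replicate 3 made up 0.93 of the range of the group, above the 95% limit of Dixon's test for 4 samples. Chance alone gives such a sample in about 1 of 20 groups, and 19 genes were checked in this way. Without Lck-off replicate 3, Prdm1 was still higher in Lck-off cells, by 1.21 (adjusted p 0.0197 in limma).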

How the results depend on the processing

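Tbx21, Eomes and Prdm1 passed in all 7 repeats that leave out an array, with differences of -1.03 to -0.89, -0.94 to -0.80 and 1.14 to 1.53; Id3 gave -1.17 to -0.87 and was lost in 4. Leaving out an array gave 960 to 1405 passing genes (449 to 646 higher, 473 to 759 lower), against 1527 (693 and 834). Median scaling gave 918 (440 and 478), and no filter on dim probes 717 (358 and 359), where Id3 was lost (-0.97, adjusted p 0.0698). With the replicate number as a block, which leaves Lck-off replicate 4 without a partner, 374 genes passed (193 and 181); Tbx21 (-0.89, adjusted p 0.0516) and Id3 (-0.96, adjusted p 0.167) were lost, while Eomes (-0.94) and Prdm1 (1.39) passed. Row 1 of the slide alone (WT replicate 3, Lck-off replicates 2 and 3) gave 105 genes (85 and 20), and row 2 alone 0 by limma (0 and 0), with 2711 at an unadjusted p under 0.05. None of the 4 factors passed within a row, but each kept its direction. Tbx21 differed by -0.89 in row 1 and -1.05 in row 2, Eomes by -0.80 and -0.88, Id3 by -1.28 and -0.75, and Prdm1 by 1.09 and 1.40. With the row as a block, all 4 passed. The sign turned for Id2 without WT replicate 2 (0.09), WT replicate 3 (0.04), Lck-off replicate 1 (0.15) or Lck-off replicate 3 (0.06), in a range of -0.20 to 0.15, and for Runx3 with all kept probes averaged (0.01; -0.19 to -0.01 on leaving out an array). The Eomes to Tbx21 contrast turned to -0.05 with averaged probes and also to -0.05 without Lck-off replicate 4 (-0.05 to 0.21). The cause was not tested. Prdm1 gave no value when probes had to be above background on all 7 arrays, and the ratios were not run with blocks, within rows or with other moderation. Dim signal limits Prdm1, Ikzf2, Il2ra and Cd44, and leaves Zeb2 unmeasured.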

Other observations

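The spread of Id2 within the groups went with that of a few genes induced in activated T cells, and also with that of Klf2. This pattern was picked out after the values were seen and is given as values alone. Id2 was higher in Lck-off replicates 2 and 4 (2.03 and 1.97) than in replicates 1 and 3 (1.11 and 1.38), and in WT it was lowest in replicate 1 (1.29, against 1.87 and 1.77 in replicates 2 and 3). The chemokine gene Ccl4 read -2.84, 0.29, -1.18 and 0.44 in Lck-off samples, against -3.41, -1.62 and -1.19 in WT samples. Ccl4 was thus also highest in Lck-off replicates 2 and 4 and lowest in replicate 1 of either group. Ccl3, a related chemokine gene, ranged from -5.54 in replicate 1 to -1.64 in replicate 4 of Lck-off; its WT signal did not clear background. Ifng had the same order of samples within the Lck-off group as Ccl4, and its lowest WT sample was again replicate 1. The lowest of these readings were at or below background. Ifng was well above background on 3 of 4 Lck-off and 2 of 3 WT arrays, Ccl3 on 3 Lck-off arrays, and Ccl4 on 2 WT arrays. In Lck-off replicate 1, Ifng (-5.11) and Ccl3 (-5.54) lay under the faintest probe that cleared background on that array (-3.37). None of these genes passed in limma (adjusted p 0.775 for Ifng, 0.503 for Ccl4 and 0.528 for Ccl3), and the 95% confidence intervals were wide, -0.85 to 3.35 for Ccl4 and -0.98 to 3.56 for Ccl3. Klf2, listed above among factors of naive and memory cells, read 6.74, 7.25, 7.09 and 7.48 in Lck-off samples, against 6.84, 7.41 and 7.24 in WT samples. Its order within the Lck-off group was that of Ccl4, and its lowest WT sample was also replicate 1. Klf2 was well above background on 4 of 4 Lck-off and 3 of 3 WT arrays. The pattern is therefore not particular to genes induced in activated cells. No test was run on this pattern.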
